A study of Sus scrofa with 33 samples.

Results

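KLF2 and 8 other genes of the blood vessel lining, of 10306 genes that could be named, were followed in the pituitary of pigs kept under thermoneutral conditions (TN) or exposed to heat (heat stress, HS). The members were KLF2, KLF4, NOS3 and THBD, which respond to blood flow, and PECAM1, VWF, CDH5, KDR and TEK, which mark endothelial cells. KLF2 was chosen by its measured values, the lower level in HS on these arrays, so its HS against TN values are given as a description with no test. The other 8 genes are known as flow-response or endothelial genes and were listed to see whether endothelial identity genes followed KLF2 in the heat, with earlier results of these data known, so their counts are read as descriptions. Every probe whose gene name or description in the array design named a member was taken, which gave 35 of the 60305 probes on the array. Of these, 33 were among the 45667 probes of the deposited log2 table. The other two, NOS3 A_72_P442218 and VWF A_72_P442685, were well above background on 3 and 22 of 33 arrays and have no value in that table.

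The samples were pituitary tissue of castrated male growing pigs, described in the study's methods as anterior lobe, with 1 array per pig. The pigs were Large White (LW), Creole (CR) or their F1 cross, and entered a climatic room at 11 weeks of age. There were 5 LW TN, 6 LW HS, 5 CR TN, 6 CR HS, 6 F1 TN and 5 F1 HS arrays. Labels give 24 °C for TN and 30 °C for HS, while the series' text gives an exposure to 32 °C for 5 days, so temperature is named only as TN or HS here. HS pigs were slaughtered after TN pigs, so slaughter day and age cannot be told apart from temperature, and the pigs came from litters that the labels do not name. By the study's methods all pigs of a pen were slaughtered at the same temperature. The labels do not name the pens either, so pigs are not fully independent within a group. The study also reports lower feed intake in the heat, which cannot be told apart from temperature here. The labels of LW HS 3 conflict, with Large White in the title but Creole in the breed field, and it was taken as Large White.

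KLF2 is a zinc finger transcription factor that laminar flow switches on in endothelial cells, where it raises the genes for endothelial nitric oxide synthase (NOS3) and thrombomodulin (THBD) and holds back clotting and inflammatory genes. KLF4 is a close relative that flow also induces and that shares many targets with KLF2. PECAM1 and CDH5 (VE-cadherin) are junction proteins, VWF is the clotting protein stored by endothelial cells, and KDR and TEK are the receptors for VEGF and for the angiopoietins. The anterior pituitary is fed by a dense bed of fenestrated capillaries that brings hypothalamic hormones to it and carries pituitary hormones away. The RNA came from whole tissue, so fewer endothelial cells and less RNA per endothelial cell cannot be told apart.

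The KLF2 probes are shown first because they did not give the same reading. O11677 and A_72_P441164 overlap over 54 bases, of which 53 match, so they are no independent measures of the gene. Their shared stretch starts as follows, where capitals mark the base at which the designs differ, A13G, counted from 1 at the 5′ end of O11677:
KLF2 O11677, bases 7 to 36: aggaagAcaggtgggcattttgactgcctg
KLF2 A_72_P441164, bases 1 to 30: aggaagGcaggtgggcattttgactgcctg
The remaining KLF2 probe shares no such stretch and is far richer in G and C, at 76.67% against 38.33% for both others:
KLF2 A_72_P619984: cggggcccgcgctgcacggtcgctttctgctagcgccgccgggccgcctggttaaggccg
For KLF4, A_72_P538303 and A_72_P021111 carry an identical sequence of 60 bases, so they are repeat spots of 1 design:
KLF4 A_72_P538303: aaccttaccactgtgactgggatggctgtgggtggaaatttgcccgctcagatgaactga
The VWF probe with a HS against TN difference at an unadjusted p under 0.05, and the first 30 bases of the KDR and TEK probes on which the breeds differed, were these:
VWF A_72_P293294: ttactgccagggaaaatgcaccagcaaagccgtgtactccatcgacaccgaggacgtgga
KDR A_72_P380298, bases 1 to 30: tctacatcatagtaaaagcggatttggttt
TEK A_72_P209977, bases 1 to 30: ctaacactgaaaaacagacttaaatctcat
TEK A_72_P691513, bases 1 to 30: cttcctcacctgtagaagccatctcaattt
All sequences are 5′ to 3′ as the deposited scanner files hold them. Those files name no genome build, so no genome positions are given.

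The median intensity was 131 to 165 per array and 0 spots were saturated, while the local background was 20 to 26 on slide 5 and 33 to 47.5 on slides 1 to 4. TN arrays LW TN 2 and CR TN 1 stood apart from the other 31. Their mean log2 level over 7 pituitary hormone genes was 16.61 and 16.94, against 17.61 to 18.12 elsewhere. Over 36 endothelial genes outside the members it was 9.46 and 9.22, against 8.60 to 8.95. Both arrays lay on slide 2 of 5, and the results below that lean on them are also given without them. Levels are log2 of quantile-normalized intensity, differences are HS minus TN adjusted for breed with their standard error (SE), and p-values are two-sided from limma, adjusted by Benjamini-Hochberg over all 45667 probes unless called unadjusted.

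KLF2 was lower in HS than in TN on both overlapping probes and in each breed. On O11677 the TN arrays had a lowest, median and highest log2 level of 10.10, 10.59 and 11.18, and the HS arrays of 9.79, 10.16 and 10.62. The 2 groups overlapped, yet each of the 17 HS arrays was under the average of the TN arrays of its breed. This count was met by 0.142% of all probes, from which nothing is read because the same contrast chose KLF2. The difference was -0.48 (SE 0.082), a fold of 0.72. On A_72_P441164 it was -0.49 (SE 0.081), again with 17 of 17 HS arrays below. The 2 probes moved together over arrays, with r = 0.98 on deviations from the group means. The GC-rich probe A_72_P619984 had a difference of -0.01 (SE 0.050), with 10 of 17 HS arrays below, and r = -0.13 with O11677. It did not show the difference seen on the other two, and its log2 level lay between 6.02 and 6.63 on all arrays.

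Within breeds the KLF2 arrays read as follows on O11677. LW TN arrays had 10.24, 10.57, 10.60, 10.64 and 11.18, and LW HS arrays a lowest, median and highest of 9.90, 10.11 and 10.52. CR TN arrays had 10.47, 10.58, 10.76, 10.90 and 10.99, and CR HS arrays 9.997, 10.32 and 10.62 as lowest, median and highest. In F1 the TN arrays had 10.10, 10.44 and 10.85 as lowest, median and highest, and the HS arrays 9.79, 9.80, 9.86, 10.15 and 10.30. The ranges of TN and HS overlapped in each breed, by the highest HS arrays and the lowest TN arrays. The differences were -0.51 in LW, -0.43 in CR and -0.51 in F1. Within slides 1 to 5 the HS mean minus the TN mean, each array taken as its deviation from the TN mean of its breed, was -0.11, -0.66, -0.48, -0.34 and -0.61. Slide 1 held 1 TN and 2 HS arrays. The breed-adjusted difference was -0.42 (SE 0.077) once LW TN 2 and CR TN 1 were left out.

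**Figure D1:**
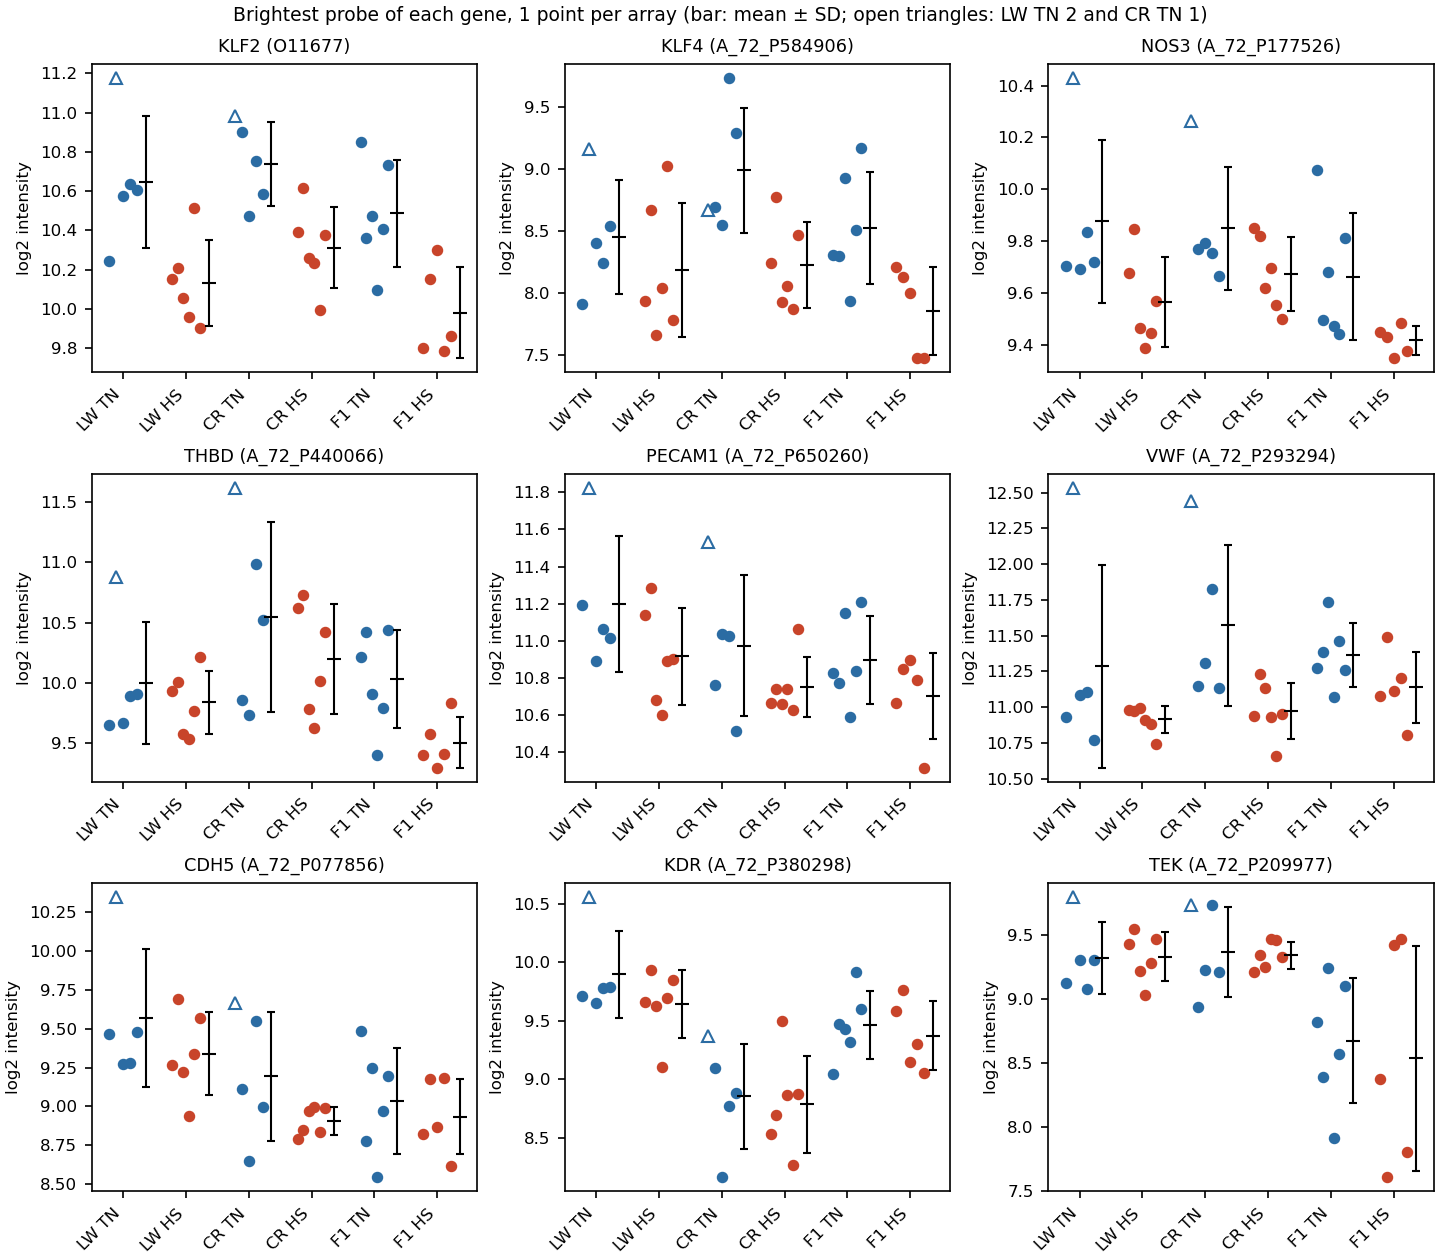
Log2 level on each array of the brightest probe of each of the 9 genes, with the mean ± SD of the 6 breed-by-temperature groups as bars and LW TN 2 and CR TN 1 as open triangles. KLF2 is lower in HS than in TN in each breed, while KDR and TEK differ mainly between breeds.

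Of the other 8 genes, 0 passed the adjusted threshold for HS against TN, which 0.0219% of all probes passed. At an unadjusted p under 0.05, the brightest probe was lower in HS for 5 of them (KLF4, NOS3, THBD, PECAM1 and VWF) and higher for none, against 3.45% of all 10306 named genes that were lower and 6.08% that were higher. All 8 lay below 0, as 40.6% of the named genes did. Counted by probe, 14 of 30 were lower, of which 8 were probes of KLF4, and 0 were higher, against 3.86% and 4.91% of all probes. In sign alone 29 of the 30 lay below 0, as 45.3% of all probes did. The median difference over the 30 probes was -0.21, beside 0.0092 over all probes. Without LW TN 2 and CR TN 1, KLF4, NOS3 and VWF were still lower at an unadjusted p under 0.05, while THBD and PECAM1 were not, and the count of probes was 10 of 30, beside 3.18% of all probes. Of the 30, 26 then lay below 0, with a median difference of -0.09 beside 0.0067 over all probes. With slide as a block 6 genes, these 5 and CDH5, and 15 of 30 probes were lower, beside 5.13% of all probes.

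KLF4, the flow-induced relative of KLF2, had the widest difference of the 8. On A_72_P584906 the TN arrays had a lowest, median and highest log2 level of 7.92, 8.54 and 9.73, and the HS arrays of 7.47, 8.05 and 9.03. The difference was -0.57 (SE 0.149, unadjusted p = 0.00058, adjusted p = 0.16), and 15 of 17 HS arrays were under the TN average of their breed, as 1.78% of all probes did with at least that many. The ranges overlapped, and LW HS 5 at 9.03 stood above most TN arrays. By breed the difference was -0.27 in LW, -0.76 in CR and -0.67 in F1, with an unadjusted p = 0.36 for the interaction in limma, so the breeds were not shown to differ. Of the 9 KLF4 probes, 8 lay between -0.28 and -0.57, at unadjusted p-values from 0.00058 to 0.0071. After A_72_P584906 the differences were -0.54 on A_72_P584816, -0.53 on A_72_P584261, -0.51 on A_72_P577783, -0.44 on both A_72_P672762 and A_72_P303164, -0.31 on A_72_P538303 and -0.28 on A_72_P021111. Besides the identical pair, A_72_P584816 and A_72_P584261 share a run of 35 bases, so the 8 are not all independent measures. The 7 probes other than A_72_P584906 had r of 0.82 to 0.98 with A_72_P584906 on deviations from the group means. O8718 had a difference of -0.0020 (SE 0.062) and r = -0.27 with A_72_P584906. The A_72_P584906 difference was -0.54 (unadjusted p = 0.0015) without LW TN 2 and CR TN 1. Within slides 1 to 5, on deviations from the TN mean of each breed, it was 0.0050, -0.47, -0.42, -0.34 and -1.09, so slide 1 with its 3 arrays showed no difference.

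NOS3 makes nitric oxide in endothelial cells and relaxes vessels. On A_72_P177526 the TN arrays had a lowest, median and highest log2 level of 9.44, 9.74 and 10.43, and the HS arrays of 9.35, 9.50 and 9.85. HS arrays were tightly grouped, and the upper end of the TN range came from LW TN 2 and CR TN 1. The NOS3 difference was -0.24 (SE 0.071, unadjusted p = 0.0015, adjusted p = 0.21), and 16 of 17 HS arrays were under the TN average of their breed, as 0.611% of all probes did with at least that many. Leaving out those 2 arrays gave -0.17 (SE 0.057, unadjusted p = 0.0059, adjusted p = 0.42). With slide as a block and all arrays it was -0.27 with an adjusted p = 0.0488, a setting where 92 probes passed in place of 10. A NOS3 spot outside the gene name rule, matched by its accession and sharing 22 bases with A_72_P177526, had -0.22 (unadjusted p = 0.0022), and O9443 had 0.03 (SE 0.079).

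THBD, the thrombin receptor that turns clotting towards anticoagulation, varied more between arrays than it differed between temperatures. A_72_P440066 had 9.40, 9.91 and 11.62 as lowest, median and highest in TN and 9.30, 9.79 and 10.73 in HS. The difference was -0.34 (SE 0.15, unadjusted p = 0.030, adjusted p = 0.51), with 13 of 17 HS arrays below. The other 3 probes had -0.21 on A_72_P272899, -0.17 on A_72_P694043 and -0.02 on A_72_P375698, at unadjusted p-values from 0.19 to 0.85. Without LW TN 2 and CR TN 1 these 3 probes had -0.14, -0.07 and -0.02. On A_72_P440066 it was -0.20 (unadjusted p = 0.15) without LW TN 2 and CR TN 1. Leaving out 1 of 4 single arrays also took it past 0.05, up to 0.070 without CR TN 1.

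**Figure D2:**
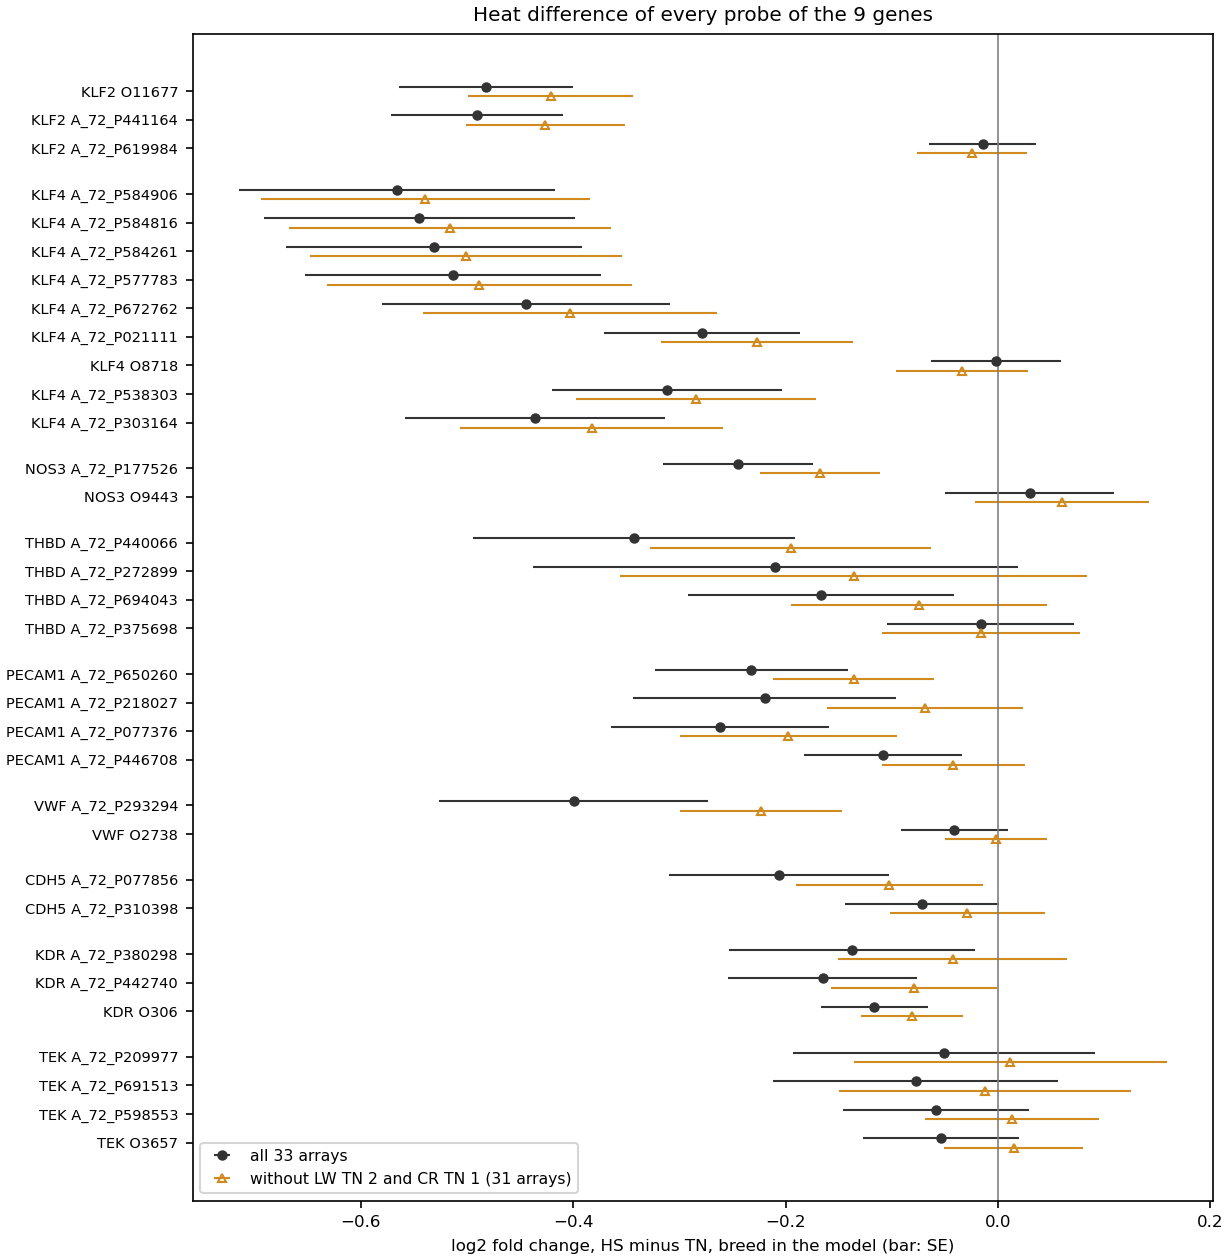
HS minus TN difference in log2 units with its standard error (bars) for each of the 33 member probes, from all 33 arrays and without LW TN 2 and CR TN 1. On all 33 arrays the 2 overlapping KLF2 probes and 8 of 9 KLF4 probes lie left of 0 by more than their standard error. KLF4 O8718 lies at -0.0020, and the 4 TEK probes lie from -0.08 to -0.05.

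Among the 5 identity genes, VWF had the largest difference on its brightest probe. On A_72_P293294 the TN arrays had a lowest, median and highest log2 level of 10.77, 11.27 and 12.53, and the HS arrays of 10.66, 10.97 and 11.49. LW TN 2 at 12.53 and CR TN 1 at 12.44 were the highest arrays. Of the HS arrays, 16 of 17 were under the TN average of their breed, as 0.611% of all probes did with at least that many. Among TN arrays 10 of 16 lay below it as well, and the 14 other than LW TN 2 and CR TN 1 averaged -0.15 from it. The difference was -0.40 (SE 0.127, unadjusted p = 0.0035, adjusted p = 0.27) and, without these 2 arrays, -0.22 (SE 0.077, unadjusted p = 0.0066). On the same deviations, VWF had -0.11, -0.87, -0.09, -0.51 and -0.42 within slides 1 to 5. O2738, a VWF probe well above background on 27 of 33 arrays, had -0.04 (SE 0.051).

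PECAM1, which joins neighbouring endothelial cells and senses flow with VE-cadherin and KDR, had smaller differences that leaned on the same pair of arrays. On A_72_P650260 the TN arrays ran from 10.51 to 11.82 with a median of 11.02, and the HS arrays from 10.32 to 11.29 with a median of 10.74. The difference was -0.23 (SE 0.091, unadjusted p = 0.015) and, without LW TN 2 and CR TN 1, -0.14 (unadjusted p = 0.082). The other probes had -0.22 on A_72_P218027, -0.26 on A_72_P077376 (unadjusted p = 0.016, and 0.062 without these arrays) and -0.11 on A_72_P446708, and a repeat spot with the same sequence as A_72_P077376 had -0.24.

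CDH5 is the cadherin of endothelial junctions. On A_72_P077856 the TN arrays ran from 8.54 to 10.35 with a median of 9.26 and the HS arrays from 8.62 to 9.69 with a median of 8.99. The difference was -0.21 (SE 0.10, unadjusted p = 0.054), -0.23 with slide as a block (unadjusted p = 0.030) and, without LW TN 2 and CR TN 1, -0.10 (unadjusted p = 0.26). A repeat spot of the same sequence had -0.20 (unadjusted p = 0.040), and A_72_P310398, well above background on 28 of 33 arrays, had -0.07. Leaving out 1 of 10 single arrays took the unadjusted p of A_72_P077856 under 0.05, to 0.022 at the lowest without CR TN 3.

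KDR and TEK, the receptor tyrosine kinases of the list, showed no difference between HS and TN beyond their spread on their brightest probes. KDR A_72_P380298 ran from 8.16 to 10.56 in TN and from 8.27 to 9.94 in HS, with a difference of -0.14 (SE 0.12, unadjusted p = 0.24). KDR A_72_P442740 had -0.17 (unadjusted p = 0.073) and O306 -0.12 (SE 0.050, unadjusted p = 0.026, and 0.10 without LW TN 2 and CR TN 1). Both KDR probes had -0.08 without these 2 arrays. TEK A_72_P209977 ran from 7.91 to 9.79 in TN and from 7.61 to 9.55 in HS, with a difference of -0.05 (SE 0.14, unadjusted p = 0.72). The other 3 TEK probes had -0.08, -0.06 and -0.05. With LW TN 2 and CR TN 1 left out, KDR A_72_P380298 had -0.04 and TEK A_72_P209977 had 0.01.

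To set KLF2 beside the identity genes array by array, each HS array was expressed as its deviation from the TN mean of its breed. KLF2 had a mean deviation of -0.48 in HS, from -0.74 to -0.12, and lay below 0 on 17 of 17 arrays. The mean of the 5 identity genes had -0.21, from -0.57 to 0.10, and lay below 0 on 14 of 17. On 9 of 16 TN arrays the identity mean was below 0 as well, and the 14 TN arrays other than LW TN 2 and CR TN 1 averaged -0.09. The mean of KLF4, NOS3 and THBD had -0.38, from -0.68 to 0.07, and lay below 0 on 16 of 17, while the same 14 TN arrays averaged -0.08 and, for KLF2, -0.06. KLF2 minus the identity mean was -0.27 ± 0.24 (SD, n = 17) in HS, below 0 on 14 of 17 arrays, while the 16 TN arrays had an SD of 0.21 around 0. KLF2 was chosen for being low in HS, so its gap to the identity genes is a description with no test.

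Whether the genes varied together apart from temperature and breed was examined on deviations from the 6 group means over all 33 arrays, for the brightest probe of each gene. Of 36 pairs, 25 had a Pearson correlation past the adjusted threshold by permutation test (100000 permutations, adjusted over the 36), with a median r of 0.53. Once slide means were removed as well, 15 did. When the 2 arrays whose level lay farthest from the median of the first gene of the pair were left out, 2 did. When the 2 whose deviation lay farthest from the median of that gene's deviations were left out, 1 did. For the pairs with KLF2 these were LW TN 2 and CR TN 1 by level and LW TN 2 and LW HS 5 by deviation, a choice added after seeing the data.

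Of the 8 pairs with KLF2, 6 passed on all arrays and 2, with KLF4 and CDH5, once slide means were removed. KLF2 and KLF4 had r = 0.62 and Spearman's rho = 0.62 (permutation p = 0.00061 and 0.00063, adjusted p = 0.0044 and 0.0057), r = 0.72 with slide means removed, and r from 0.49 to 0.84 within each of slides 2 to 5. Setting aside LW TN 2 and CR TN 1 left r at 0.62 (adjusted permutation p = 0.036), while setting aside LW TN 2 and LW HS 5 gave 0.48 (adjusted permutation p = 0.070). KLF2 and NOS3 had r = 0.63 and rho = 0.50 (permutation p = 0.0013 and 0.0057, adjusted p = 0.0063 and 0.016), 0.41 with slide means removed (adjusted permutation p = 0.058), 0.45 without LW TN 2 and CR TN 1 (adjusted p = 0.096) and 0.60 without LW TN 2 and LW HS 5 (adjusted p = 0.039). No pair with KLF2 passed both ways of leaving out 2 arrays. For CDH5, VWF, PECAM1 and THBD r with KLF2 was 0.59, 0.56, 0.53 and 0.53 on all arrays, and 0.42, 0.30, 0.33 and 0.36 without LW TN 2 and CR TN 1, where the adjusted permutation p was from 0.11 to 0.19. With slide means removed r was 0.44 for CDH5 (adjusted permutation p = 0.0487) and 0.29, 0.32 and 0.40 for VWF, PECAM1 and THBD (adjusted permutation p from 0.058 to 0.15). KDR and TEK had r of 0.36 and 0.32 with KLF2 (adjusted permutation p = 0.073 and 0.11).

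**Figure D3:**
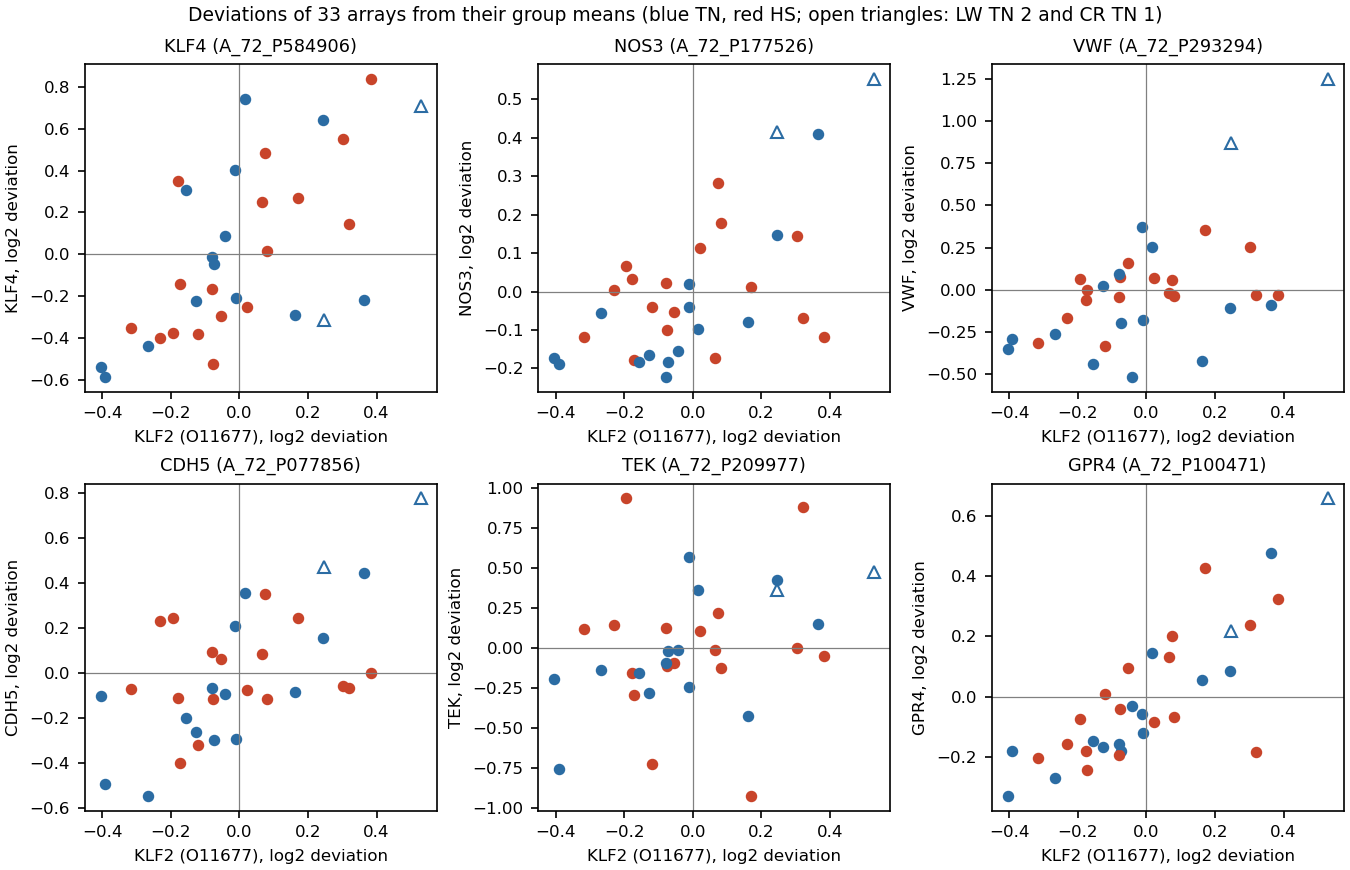
Log2 deviation of each array from its group mean for KLF2 (O11677, horizontal) against KLF4, NOS3, VWF, CDH5, TEK and GPR4 (vertical), with TN arrays in blue, HS arrays in red and LW TN 2 and CR TN 1 as open triangles. For KLF4 the r of 0.62 is the same without the triangles (0.48 without LW TN 2 and LW HS 5), while for VWF it goes from 0.56 to 0.30.

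Across the 10301 named genes ranked by likeness to KLF2 O11677 on the same deviations, each by its probe of highest r, the first was GPR4, a proton-sensing receptor of endothelial cells, with r = 0.81 over 33 arrays. It was followed by the metalloproteinase inhibitor TIMP2 (0.75), the smooth muscle protein SMTN (0.75), the endothelial exchange factor FGD5 (0.72) and the endothelial protein C receptor PROCR (0.72). These values are descriptions, since the arrays share slides and the same 2 outlying TN arrays. Over the 31 other arrays they were 0.74, 0.73, 0.64, 0.61 and 0.61. By that rule the members stood on other probes than above for some genes. KLF4 came 11th (r = 0.69 on A_72_P303164), THBD 39th (0.63 on A_72_P694043), NOS3 46th (0.63 on A_72_P177526), CDH5 84th (0.60 on its repeat spot), VWF 150th (0.56) and PECAM1 245th (0.53), while TEK came 754th (0.43 on O3657) and KDR 972nd (0.40 on A_72_P442740). On all 33 arrays HS against TN gave -0.41 for PROCR (unadjusted p = 0.0014), -0.34 for SMTN (0.0048), -0.31 for GPR4 (0.00085), -0.20 for FGD5 (0.019) and 0.05 for TIMP2 (0.42). The ranking did not use this contrast, yet LW TN 2 and CR TN 1 enter both, so it is not a separate result. LW TN 2 deviated from its group mean by 1.21 for PROCR, 0.90 for SMTN, 0.66 for GPR4, 0.71 for FGD5 and 0.25 for TIMP2. A_72_P441164 gave the same first 4 genes and ACAA1 as the fifth. The GC-rich probe A_72_P619984 gave other leading genes, MAPKBP1, STAT5B, PARVG, PARL and RBM17.

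Of the member probes 2 passed for LW against CR, 3 for F1 against LW and 7 for F1 against CR, with 2 of these calls on KDR and 4 on TEK. With slide as a block NOS3 A_72_P177526 also passed for F1 against CR (adjusted p = 0.028) and CDH5 A_72_P310398 for F1 against LW (0.025). THBD A_72_P694043 then passed for LW against CR (adjusted p = 0.045), as it did without LW TN 2 and CR TN 1 (0.048). KDR A_72_P380298 was higher in LW than in CR, with 9.76 ± 0.34 (SD, n = 11) in LW, 9.42 ± 0.28 in F1 and 8.82 ± 0.41 in CR. LW arrays had a lowest, median and highest of 9.10, 9.71 and 10.56, F1 arrays of 9.05, 9.43 and 9.92 and CR arrays of 8.16, 8.86 and 9.50. The LW and CR ranges overlapped through LW HS 4 at 9.10 and, on the CR side, CR HS 3 at 9.50 and CR TN 1 at 9.37. The difference was 0.94 for LW minus CR (SE 0.14, adjusted p = 3.9e-05) and 0.59 for F1 minus CR (SE 0.14, adjusted p = 0.0097). Among all probes, 6.65% passed for LW against CR and 6.86% for F1 against CR. KDR A_72_P442740 and O306 had LW minus CR differences of 0.15 (adjusted p = 0.51) and 0.10 (adjusted p = 0.42), so 1 of 3 KDR probes carried the breed difference although A_72_P380298 and A_72_P442740 varied together within groups (r = 0.79). Array LW HS 3 had 9.63 on A_72_P380298, and with it taken as Creole or left out the LW against CR difference still passed. It was 0.92 (adjusted p = 3.2e-05) without LW TN 2 and CR TN 1.

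TEK was lower in F1 than in both parental breeds on A_72_P209977 and A_72_P691513. On A_72_P209977 the F1 arrays averaged 8.61 ± 0.66 (SD, n = 11), against 9.32 ± 0.22 in LW and 9.35 ± 0.23 in CR. The F1 HS arrays had 7.61, 7.81, 8.38, 9.42 and 9.47, and the F1 TN arrays a lowest, median and highest of 7.91, 8.70 and 9.24. F1 arrays thus reached both the level of the parental breeds and values more than 1 log2 unit below it, in TN and in HS. The differences were -0.72 for F1 minus LW (adjusted p = 0.030) and -0.75 for F1 minus CR (adjusted p = 0.0081). They were -0.71 (adjusted p = 0.022) and -0.65 (adjusted p = 0.014) on A_72_P691513, which had r = 0.97 with A_72_P209977. On A_72_P598553, with r = 0.85, they were -0.33 and -0.28 (adjusted p = 0.12 and 0.11), and O3657 had r = 0.01 and differences of 0.01 and 0.13. Among all probes, 1.48% passed for F1 against LW. On A_72_P209977 the F1 minus LW difference no longer passed when any 1 of 7 arrays was left out, with the highest adjusted p = 0.066 without F1 HS 2.

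**Figure D4:**
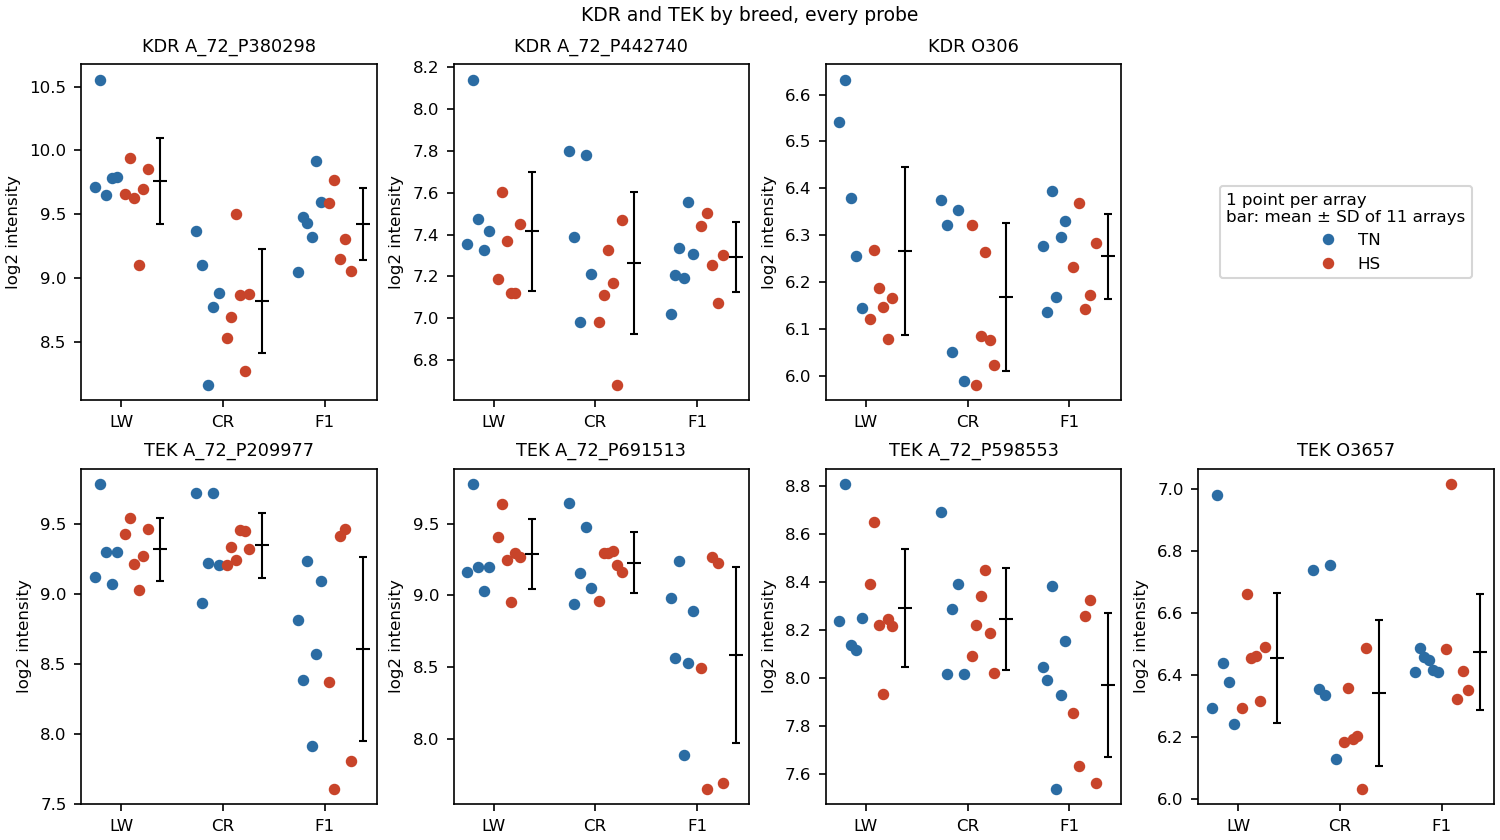
Log2 level of each KDR and TEK probe on every array by breed, with TN arrays in blue, HS arrays in red and the mean ± SD of the 11 arrays of a breed as bars. LW arrays lie mostly above CR arrays on KDR A_72_P380298, and F1 arrays spread from 7.61 to 9.47 on TEK A_72_P209977.

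The other calls lay on CDH5, THBD, PECAM1 and KLF2. CDH5 A_72_P077856 was higher in LW than in CR by 0.41 (adjusted p = 0.045) and lower in F1 than in LW by -0.47 (adjusted p = 0.0497). The first no longer passed when any 1 of 19 arrays was left out (adjusted p up to 0.089, without LW TN 2), and the second when any 1 of 25 was (up to 0.098, without LW TN 2). Without both LW TN 2 and CR TN 1 the first passed (adjusted p = 0.028) and the second did not (0.060). For F1 minus CR, THBD had -0.60 on A_72_P440066 (adjusted p = 0.045) and -0.54 on A_72_P694043 (adjusted p = 0.028), PECAM1 A_72_P077376 had -0.42 (adjusted p = 0.039) and KLF2 A_72_P441164 had -0.35 (adjusted p = 0.029). On the overlapping KLF2 probe O11677 the same difference was -0.29 (adjusted p = 0.070), and it passed with slide as a block at -0.33 (adjusted p = 0.014). Without LW TN 2 and CR TN 1, THBD A_72_P440066 and PECAM1 A_72_P077376 no longer passed (adjusted p = 0.071 and 0.069). With 1 array left out at a time, these calls were lost for 14 arrays on THBD A_72_P440066, 7 on THBD A_72_P694043 and 11 on PECAM1 A_72_P077376, with the highest adjusted p (0.095, 0.058 and 0.088) without CR TN 1, and for 4 on KLF2 A_72_P441164 (up to 0.057, without F1 TN 4). For the interaction of breed and temperature 0 of 33 member probes passed, as 0% of all probes did by limma, and 0 member probes had an unadjusted p under 0.05 against 4.25% of all probes.

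The wider endothelial and flow-response lists leaned the same way as the members, again in part through LW TN 2 and CR TN 1. Of 36 measured endothelial identity genes outside the members (of 50 listed), 10 were lower and 1, the adrenomedullin receptor part CALCRL at 0.26, was higher in HS at an unadjusted p under 0.05, with a median difference of -0.10 beside 0.018 over all named genes. For this and every list below, the share of all named genes was 3.45% lower and 6.08% higher. The lower ones included GPR4 at -0.31, the fenestral diaphragm protein PLVAP at -0.33, ICAM2 at -0.21 and CD93 at -0.23 (unadjusted p from 0.00085 to 0.010, on all arrays). In sign alone 27 of the 36 lay below 0, as 40.6% of the named genes did. With the 2 arrays left out, 21 of the 36 lay below 0, and 4 were lower and 2 higher, with a median of -0.03. Of 29 measured genes of a wider flow-response list (of 34), 8 were lower and 0 higher, with a median of -0.15. They included the TEK ligand ANGPT2 at -0.30 (unadjusted p = 0.00029), the adhesion molecule ICAM1 at -0.26 (0.0018), the caveolar protein CAV1 at -0.41 (0.0018, below in 17 of 17 HS arrays) and the chemokine CCL2 at -0.43 (0.0066). In sign alone 22 of the 29 lay below 0. Without the 2 arrays 23 did, and 5 were lower and 0 higher at that p, with a median of -0.06. None of these genes passed the adjusted threshold.

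Genes that act before KLF2 in its flow pathway, such as the MEF2 factors and the kinase MAP3K3, gave 0 lower and 0 higher of 12 measured (of 19 listed), with a median of 0.0014. Without LW TN 2 and CR TN 1, MEF2C was higher by 0.17 (unadjusted p = 0.035). Of 16 other measured KLF and SP family genes (of 17 listed), KLF9 at -0.26 (unadjusted p = 0.00955) and KLF15 at -0.16 (0.015) were lower and KLF8 at 0.15 (0.0035) was higher. KLF9 and KLF15 are known as glucocorticoid-responsive members of the family. Among 6 measured angiopoietin and VEGF family genes (of 11 listed), ANGPTL4 was lower by -0.81 (unadjusted p = 0.00080) along with ANGPT2, which stands in both lists, while VEGFA had -0.15 (0.19) and ANGPT1 had 0.18 (0.27).

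**Figure D5:**
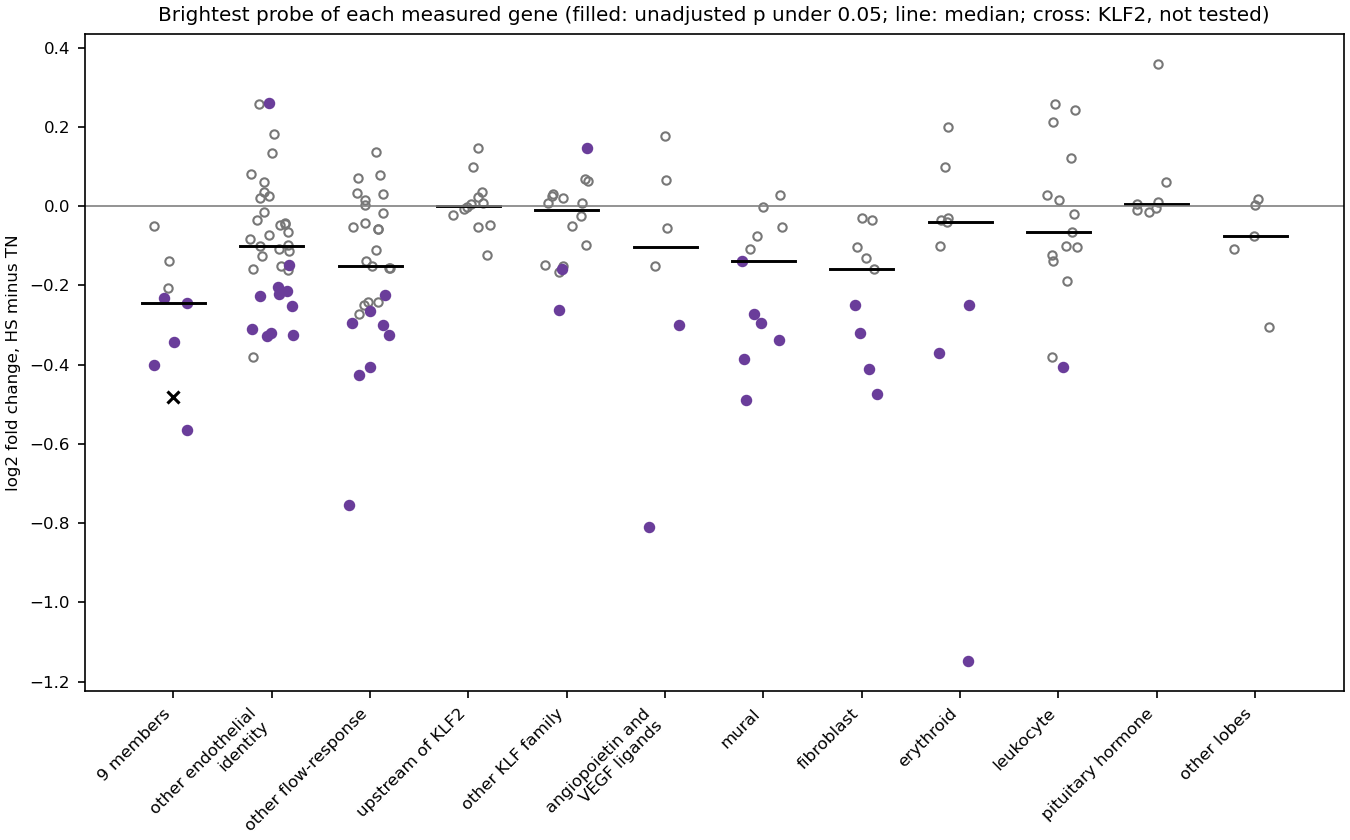
HS minus TN difference in log2 units of the brightest probe of every measured gene in each list, with filled points for an unadjusted p under 0.05, a line at the median of the list and a cross for KLF2, which was not tested. All 9 fibroblast genes and 10 of 11 mural genes lie below 0, while the genes upstream of KLF2 lie around 0.

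Some markers of other cells of the vessel wall and of blood were also lower in HS. Of 11 measured genes of mural cells, the pericytes and smooth muscle around vessels (12 listed), 6 were lower and 0 higher at an unadjusted p under 0.05, led by RGS5 at -0.49, CSPG4 at -0.34, TAGLN at -0.27 and PDGFRB at -0.29 (unadjusted p from 0.0013 to 0.014), with a median of -0.14. Of 9 measured fibroblast genes (10 listed), 4 were lower and 0 higher, with COL1A2 at -0.32, COL3A1 at -0.41, COL1A1 at -0.47 and DCN at -0.25 (unadjusted p from 0.00074 to 0.026) and a median of -0.16. Without LW TN 2 and CR TN 1 the medians were -0.13 and -0.16, with 4 and 3 lower. The mean level of the mural list ran from 9.63 to 10.15 in TN and from 9.36 to 9.97 in HS, and that of the fibroblast list from 10.32 to 11.15 and from 10.13 to 10.89.

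The 4 haemoglobin probes did not move alike. The alpha chain probe A_72_P159746 fell by 1.30 on the log2 scale (adjusted p = 0.0092, below in 17 of 17 HS arrays) and the beta chain probe O859 by a HS minus TN difference of -1.15 (adjusted p = 0.030). A further beta chain probe, A_72_P055481, had -0.85 (adjusted p = 0.14, below in 15 of 17 HS arrays), and a further alpha chain probe, A_72_P198167, had 0.0029 (SE 0.045, unadjusted p = 0.95, below in 6 of 17). Over the 9 measured erythroid genes (13 listed) the median difference was -0.04, and -0.11 without LW TN 2 and CR TN 1, with a mean level from 7.84 to 8.45 in TN and from 7.74 to 8.31 in HS. Leukocyte markers gave 1 lower of 15, CD163 at -0.41, and the 7 hormone genes gave 0 lower and 0 higher, or 1 lower, TSHB at -0.43 (unadjusted p = 0.0056), with LW TN 2 and CR TN 1 left out. The part of vessel wall, blood or hormone cell RNA in the KLF2, KLF4, NOS3 and VWF differences was not tested.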

How the data were processed

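Pituitary RNA labelled with Cy3 was hybridised to a 1-colour Agilent porcine array, and 33 arrays were analysed. The log2 values of 45667 probes, as deposited, had been made by the authors from the median pixel intensity after quality control, with quantile normalization and no background correction. The scanner files, also deposited, hold spot and background intensity, with marks for spots well above background, as read by Agilent Feature Extraction 10.10.1.1. The submitters' processing notes also name limma. The deposited log2 values were used as they stand. They matched the scanner files array by array, with a median absolute difference of 0.0038.

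A linear model with breed and temperature was fitted to all probes with limma 3.58.1 in R 4.3.3, and a model with 1 mean per group gave within-breed differences and the interaction F-test. Tests were two-sided, with eBayes and Benjamini-Hochberg adjustment over 45667 probes and a threshold of 0.05. Pen, slaughter day, father and mother, which the study's own model used, were not fitted because the labels do not carry them. Correlations used 100000 permutations (scipy 1.17.1, numpy 2.4.6, pandas 2.3.3, Python 3.11.15). Plots used matplotlib 3.10.9 and results were written with the package data.table, version 1.17.8. The fits were tested on simulated data. The number of arrays limits the precision.

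Symbols came from the array design or, for other genes only, from an accession or synonym, which named 21695 probes for 10306 genes. Lists use the brightest probe of each gene. The members and the lists were chosen with earlier results of these data known. The text names every member probe, the genes of each list with an unadjusted p under 0.05 (at most the 4 smallest), haemoglobin probes, and the 5 genes most like each KLF2 probe. The names and count of called erythroid genes are not reported here. Names singled out beyond this rule, such as CALCRL, VEGFA and ANGPT1, were chosen after their values were seen. The alternatives changed the values, background correction, dim-probe filter, slide, breed term, model, array weights, the breed of LW HS 3, the arrays left out, the probe per gene and the assignment of probes.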

Additional observations from a re-analysis of the deposited data

Results flagged for a closer look

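Within each group of 5 or 6 arrays, the highest or lowest array was compared with its nearest neighbour by Dixon's ratio, the gap to that neighbour over the range of the group. This was done for 14 probes in 6 groups, 84 tests in all, of which chance passes about 1 in 20. It picked out 9. Array LW TN 2 was the highest of its group on NOS3 A_72_P177526 (ratio 0.806, level 10.43 against 9.84 for the next array), THBD A_72_P440066 (0.789, 10.87 against 9.91), VWF A_72_P293294 (0.811, 12.53 against 11.10), CDH5 A_72_P077856 (0.81, 10.35 against 9.48), KDR A_72_P380298 (0.849, 10.56 against 9.79) and TEK A_72_P691513 (0.772, 9.78 against 9.20). Array CR TN 1 was the highest of its group on NOS3 A_72_P177526 (0.789, 10.27 against 9.79). These are the 2 TN arrays with the lowest hormone levels. CR HS 6 was the highest of its group on PECAM1 A_72_P650260 (0.739, 11.07 against 10.74), and LW HS 4 the lowest of its group on KDR A_72_P380298 (0.626, 9.10 against 9.63).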

How the results depend on the processing

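No paired analysis was possible because the labels give the groups no replicate numbers, and litters are not named. Values under other settings were compared for single probes and for list medians. A probe was kept if its direction and its side of the threshold stayed. The threshold was on unadjusted p for HS against TN and on adjusted p for breeds. A list median was kept if it moved by less than the SD of the array means within groups. For KLF2 in HS against TN this is a description with no test. Of 298 such values, 268 were kept, 23 no longer passed, 4 newly passed and 3 turned in direction. The 3 were those of HS against TN, TEK A_72_P209977, which gave 0.00795 without the breed term, 0.067 with array weights and 0.012 without LW TN 2 and CR TN 1. KLF2 O11677 stayed between -0.49 and -0.42 and KLF4 A_72_P584906 between -0.66 and -0.53. Probes passing for HS against TN numbered 10. They numbered 24 with processed signals, 92 with slide as a fixed and 54 with slide as a random block, 4 without the breed term, 6 with array weights, 32 with LW HS 3 left out and 6 without LW TN 2 and CR TN 1. F1 against Large White gave 674, and 1019 with slide as a random block, 1870 with array weights and 449 with LW HS 3 taken as Creole, where Large White against Creole went from 3039 to 1827. Without LW TN 2 and CR TN 1 the interaction gave 1 probe in place of 0, and HS against TN within LW 5 in place of 0. Array weights gave 6 there, and 1 within Creole in place of 0. The genes other than KLF2 lower in HS went from 5 to 3 with array weights or without LW TN 2 and CR TN 1. Correlated pairs of members went from 25 to 15 with group and slide means removed, to 2 without the 2 arrays farthest in level and to 1 without the 2 farthest in deviation. The cause of these shifts was not tested.

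With 1 array left out at a time, HS against TN gave 6 to 37 probes (6 without CR TN 1, 37 without F1 TN 3), Large White against Creole 2570 to 3526, F1 against Large White 367 to 1158, F1 against Creole 2023 to 4211, and the interaction 0 to 1. Within LW the count was 0 to 4, within Creole 0 to 2 and within F1 0 to 2, and 4 to 6 of the 8 genes were lower in HS. TEK A_72_P209977 lay between -0.12 and 0.023 and KLF2 A_72_P619984 between -0.033 and 0.017. Of 759 such values of single probes, 655 kept their direction and side of the threshold, 91 no longer passed, 10 newly passed and 3 turned.

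Probes not well above background on every array (NOS3 A_72_P442218, VWF A_72_P442685, VWF O2738 and CDH5 A_72_P310398) limit what can be said of those transcripts, and 5 or 6 arrays per group limit the within-breed values.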
